A study of Mus musculus with 6 samples.

Results

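The genes that recycle iron from old red blood cells were examined in splenic monocytes of water-gavaged and vancomycin-gavaged mice. The set holds 10 genes, chosen by gene symbol, of the 46072 gene identifiers in the count table. They are Hmox1 and Blvrb for heme breakdown, Slc40a1 for iron export, the transcription factor Spic, Cd163 and Hp for hemoglobin scavenging, Fth1 and Ftl1 for iron storage, and Tfrc and Slc11a1 for uptake and transport. Each symbol stood on 1 identifier that was measured in all 6 libraries, and all 10 passed the filter on low counts. None of the 10 passed the threshold between Van and Con in edgeR's quasi-likelihood test after Benjamini-Hochberg adjustment, although 9 of 10 had a higher estimate in Van.

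Polyadenylated RNA of spleen monocytes was sequenced from 3 mice of the Con group and 3 of the Van group. All were female C57BL/6 mice of 8 to 10 weeks. Van mice received 2 mg of vancomycin per day by oral gavage, as 2 doses of 1 mg, for 6 days, and Con mice received water in the same way. Both groups then rested without antibiotic for 6 to 8 days by the labels, or 8 days by the study's account of the sequencing, before the spleens were taken. The monocytes were enriched by negative selection, with a purity of 90% in the study's methods, so that red pulp macrophages and other cells could be present in each library. Mice treated with vancomycin and the lipid L654 were not analysed here.

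Macrophages of the splenic red pulp engulf old red blood cells and digest their hemoglobin. Heme oxygenase opens the heme ring and frees its iron, biliverdin is then reduced to bilirubin, and the iron is either stored in ferritin or sent back to the blood through ferroportin. Iron regulatory proteins read the iron level of the cell. When iron is scarce they bind a short hairpin, the iron responsive element, which blocks translation of ferritin and ferroportin messages and protects the transferrin receptor message from decay. Monocytes are able to become red pulp macrophages, and Spic is the factor that this step needs.

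The element is what sets 4 of the 10 genes apart in sequence, and it acts on translation or on message decay, so its sequences are printed to show which messages carry it. The GRCm38 transcripts of GENCODE M21 were searched on the sense strand for a C, 5 bases, a CAGTG loop with a base other than G after it, and 5 bases that pair with the first 5, G-T pairs included. Each element is printed as DNA in 29 bases with the 6 bases of the loop in capitals.

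Slc40a1, 5′ UTR, chr1:45925465-45925493, minus strand: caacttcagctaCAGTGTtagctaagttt
Fth1, 5′ UTR, chr19:9982732-9982760, plus strand: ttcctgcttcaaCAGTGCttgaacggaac
Ftl1, 5′ UTR, chr7:45459779-45459807, minus strand: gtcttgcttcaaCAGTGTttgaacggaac
Tfrc, 3′ UTR, chr16:32631219-32631247, plus strand: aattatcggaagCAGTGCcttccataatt
Tfrc, 3′ UTR, chr16:32631598-32631626, plus strand: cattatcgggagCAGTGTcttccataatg
Tfrc, 3′ UTR, chr16:32631663-32631691, plus strand: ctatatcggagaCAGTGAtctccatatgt
Tfrc, 3′ UTR, chr16:32631710-32631738, plus strand: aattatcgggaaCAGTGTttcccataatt

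The export gene and both ferritin genes carried 1 such element each before the coding sequence, and Tfrc carried 4 after it. The other 6 genes held no match. Over all genes with an annotated 5′ UTR the letters were found in 0.11%, and in 0.521% of those with a 3′ UTR. A match is a description of the letters and no measure of binding.

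The 10 genes spanned a wide range of levels. Per length of transcript, in FPKM (fragments scaled to transcript length and library size), the mean of Ftl1 over the 6 mice was 984 times that of Tfrc. Ftl1, the light chain of ferritin, stood at 3473 ± 312 FPKM (SD, n = 6) and was the 4th highest gene symbol in the table. Fth1, the heavy chain that oxidizes iron for storage, stood at 2093 ± 201 FPKM and was 11th. Both ferritin chains therefore lay among the most abundant messages of these cells.

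Hmox1 followed at 605 ± 99.2 FPKM, at rank 82. Slc11a1, Hp and Slc40a1 formed the middle of the order, with means of 197 ± 19.8, 175 ± 27.4 and 162 ± 22.9 FPKM. Their ranges over the 6 mice overlapped, and in each neighbouring pair the higher gene was higher in 5 of 6 mice, so these 3 were not separated beyond their spread. Blvrb at 64.6 ± 7.02 FPKM and Spic at 45.9 ± 5.74 FPKM also had overlapping ranges, with Blvrb the higher in 6 of 6 mice.

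Cd163 stood lower, at 17.2 ± 3.71 FPKM, and Tfrc lowest, at 3.53 ± 0.68 FPKM and rank 8696. Every other neighbouring pair in this order was separated in all 6 mice with no overlap of the ranges. The coefficient of variation was between 8.97% for Ftl1 and 21.6% for Cd163.

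**Figure D1:**
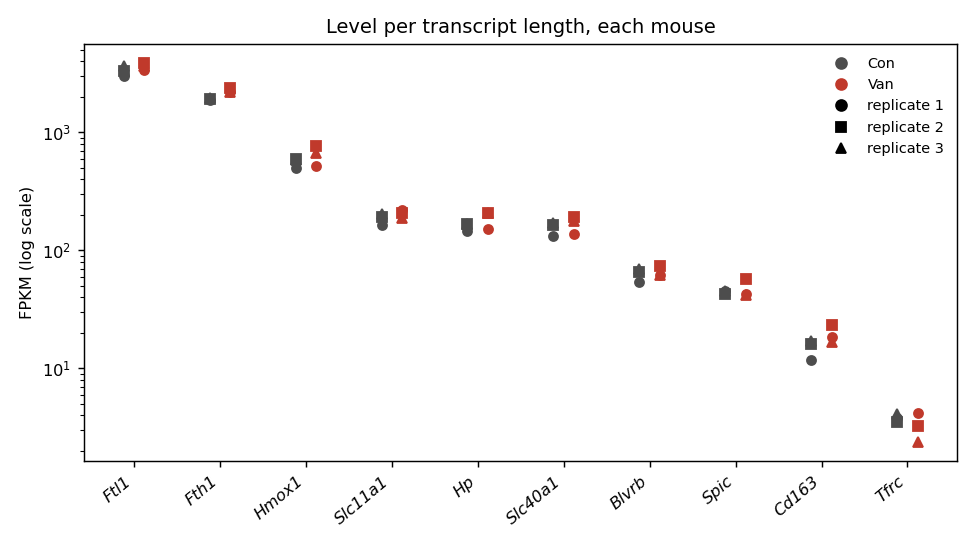
Level of each iron recycling gene in FPKM on a log scale, 1 symbol per mouse, with Con in grey and Van in red and the symbol's shape giving the replicate. Both ferritin genes lie at or above 1880 FPKM in every mouse, Slc11a1, Hp and Slc40a1 share a band from 132 to 221 FPKM, and Tfrc lies lowest in every mouse.

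The comparison between Van and Con asked whether prior vancomycin treatment went with a different level of these genes in resting monocytes. Levels between mice are given below in CPM (counts scaled to library size), and differences as log2 fold changes of Van against Con. Over all 16138 identifiers tested, 2.00% passed the threshold, an adjusted p no larger than 0.05, and count as called, 16.5% had an unadjusted p under 0.05, and 22.5% had no overlap between the groups. Among the 10 genes, 0 were called, 2 had an unadjusted p under 0.05 (Fth1 and Cd163), and the same 2 had no overlap. The median log2 fold change of the 10 was 0.12, against 0.00 over all genes tested, of which 49.6% were higher in Van. DESeq2's Wald test, which called 7.35% of the genes it adjusted, called 1 of the 10. RNA was measured in bulk, so that more cells of a type and more RNA per cell cannot be told apart in any of these values.

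Some libraries stood apart for most of these genes. Con replicate 1 was the lowest of the 6 libraries for 8 of the 10 genes and Van replicate 2 the highest for 7. Without Con replicate 1, 7 of the 10 genes were higher in Van and the median was 0.07. Without Van replicate 2, 7 were likewise higher, with a median of 0.09. The median was 0.19 without Van replicate 1 and 0.18 without Con replicate 3, and all 10 genes were higher in Van without Van replicate 3. The same libraries were the extremes for red pulp macrophage markers, since Con replicate 1 was lowest for 9 of 10 and Van replicate 2 highest for all 10. The summed level of these markers was between 2865 and 3363 CPM in Con and between 3559 and 4413 in Van, and the part of such cells in the levels of Fth1, Cd163 and the other genes was not tested. The total estimated count per library was between 43383919 and 61834407, and the 10 genes took between 0.775% and 1.02% of it.

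**Figure D2:**
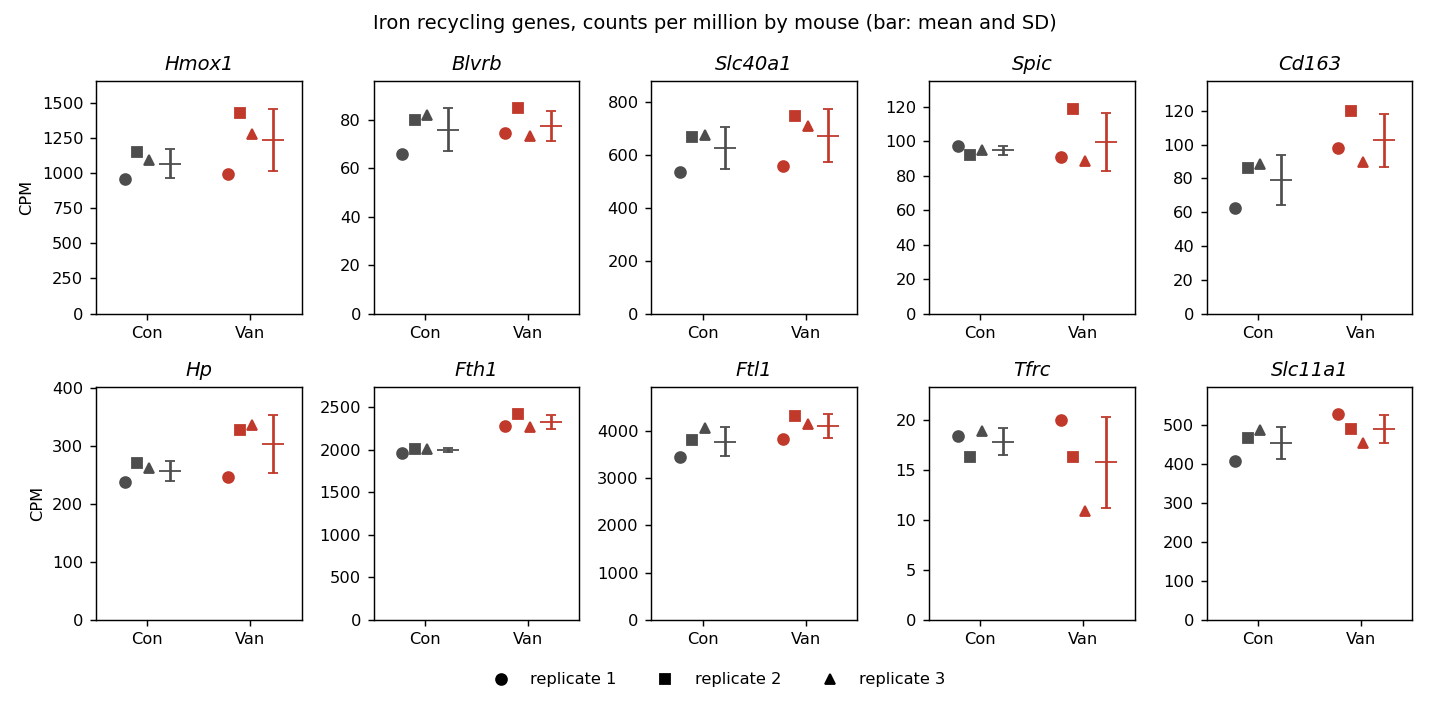
CPM of the 10 genes in each mouse, with Con in grey and Van in red, the symbol's shape giving the replicate, and the bar at the right of each group giving mean and SD (n = 3). The groups are separate for Fth1 and Cd163, and Van replicate 2 is the highest library for 7 of the 10 genes.

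Iron storage held the gene with the smallest p-value. Fth1 (chr19:9980598-9985098, plus strand) measured 1966, 2004 and 2008 CPM in the Con mice and 2281, 2421 and 2274 CPM in the Van mice. Every Van mouse lay above every Con mouse, and the 3 Con mice lay close together. The means were 1993 ± 22.9 and 2325 ± 83.0 CPM (SD, n = 3). Van exceeded Con by 0.22 ± 0.05 on the log2 scale (SE, as for every log2 fold change below), with a 95% interval from 0.11 to 0.34. The adjusted p was 0.0634 in edgeR's quasi-likelihood test, short of the threshold, and 0.0016 in DESeq2's Wald test. The adjusted p of edgeR was between 0.0853 and 0.219 with any single mouse left out.

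Ftl1 (chr7:45457944-45459884, minus strand) measured 3453, 3801 and 4064 CPM in Con and 3828, 4321 and 4157 CPM in Van. The groups overlapped, since Van replicate 1 lay below Con replicate 3. Its log2 fold change was 0.12 ± 0.07 with a 95% interval from -0.05 to 0.29 (adjusted p = 0.471, edgeR). It was 0.06 without Con replicate 1. Ferritin is built from both chains, and the level of Fth1 over that of Ftl1, as a ratio of FPKM, was 0.583 ± 0.042 in Con and 0.624 ± 0.027 in Van (exact two-sided permutation test, p = 0.3, n = 3). With 3 mice against 3 this test cannot give a p below 0.1.

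Near-identical copies limit the Ftl1 value. Transcripts of 5 measured genes share at least 200 bases at 95% identity or more with Ftl1, and Ftl1-ps1 had the largest count of them. Their summed count, which is apart from that of Ftl1, came to between 8.62% and 9.29% of the Ftl1 count in every library. Reads could be split between these genes and Ftl1. A miRNA gene, Gm22133, also overlaps 109 exonic bases of Ftl1 on the same strand. The only copy of Fth1 found, Gm6977, was at 0 in all libraries.

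Heme breakdown is the step that frees the iron. Hmox1 (chr8:75093621-75100589, plus strand), the inducible heme oxygenase, measured 956, 1151 and 1093 CPM in Con and 995, 1425 and 1279 CPM in Van. Van replicates 2 and 3 lay above all Con mice, but Van replicate 1 lay below 2 of them. Its difference on the log2 scale was 0.21 ± 0.13 with a 95% interval from -0.08 to 0.49 (adjusted p = 0.467, edgeR). It was 0.09 without Van replicate 2 and 0.34 without Van replicate 1.

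Blvrb (chr7:27447978-27466144, plus strand), a biliverdin and flavin reductase, measured 65.9, 79.9 and 81.9 CPM in Con and 74.4, 84.7 and 73.4 CPM in Van. The groups overlapped throughout. On the log2 scale the estimate was 0.03 ± 0.10 with a 95% interval from -0.19 to 0.25 (adjusted p = 0.921, edgeR), and it was negative without Con replicate 1 (-0.06) or Van replicate 2 (-0.04). Both heme breakdown genes of the set were thus not shown to differ, and the intervals allow changes of up to 0.49 for Hmox1 and 0.25 for Blvrb.

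Iron leaves the cell through ferroportin, the product of Slc40a1 (chr1:45908068-45926523, minus strand). It measured 535, 669 and 674 CPM in Con and 559, 747 and 710 CPM in Van. In each group replicate 1 was the low mouse, and the groups overlapped. This gave a log2 fold change of 0.10 ± 0.12 with a 95% interval from -0.18 to 0.38 (adjusted p = 0.754, edgeR), and it was -0.00094 without Con replicate 1.

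By the smallest root mean square difference in centred log2 CPM over the 6 libraries, among 12588 genes with a mean of at least 1 CPM, the profiles most like that of Slc40a1 were those of Camk1, Fez2, Tfec, Nqo2 and Etfb. The differences ran from 0.03 for Camk1 to 0.05 for Etfb, against a spread of 0.18 for Slc40a1 itself. Camk1, a calmodulin-dependent kinase, measured 30.5, 36.0 and 38.6 CPM in Con and 30.6, 40.9 and 39.3 CPM in Van. In Camk1, as in Slc40a1, replicate 1 was the lowest mouse of each group. Such a likeness rests on 6 libraries and on a choice among many genes, and any difference in depth or cell make-up between the libraries enters both profiles.

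Spic (chr10:88674772-88685015, minus strand), the transcription factor of red pulp macrophages, measured 97.5, 92.1 and 94.9 CPM in Con and 90.8, 119 and 88.5 CPM in Van. Van replicate 2 was high, and the other Van mice lay below all Con mice. For Spic the log2 fold change was 0.07 ± 0.11 with a 95% interval from -0.18 to 0.31 (adjusted p = 0.830, edgeR), and it was -0.08 without Van replicate 2. A stretch of the Spic transcript of 231 to 347 bases is shared at 95% identity or more with transcripts of 14 other genes, so that some reads of that stretch cannot be placed with certainty. The whole count of these genes, of which 9 are in the table, came to between 102% and 147% of the Spic count, and how much of it lies in the shared stretch was not measured. The profiles most like that of Spic were those of Gm16378, Mrrf, Gcc1, Hvcn1 and Acot2, with differences of 0.02 to 0.05 against a spread of 0.14 for Spic, and they share its high value in Van replicate 2.

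Hemoglobin that escapes from red blood cells is bound by haptoglobin and taken up through CD163. Cd163 (chr6:124304656-124330527, plus strand) had the largest estimate of the 10 genes. It measured 62.3, 86.1 and 88.8 CPM in Con and 98.2, 120 and 89.5 CPM in Van. The groups did not overlap, but the lowest Van mouse lay only just above the highest Con mouse. For Cd163 the log2 fold change was 0.38 ± 0.15 with a 95% interval from 0.04 to 0.71, at an unadjusted p of 0.0332 and an adjusted p of 0.255 in edgeR's test, and an adjusted p of 0.0957 in DESeq2's. Without Con replicate 1, the lowest mouse, the estimate was 0.23, and without Van replicate 2, the highest, it was 0.25, each below the full value by more than 1.5 times.

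Hp (chr8:109575128-109579172, minus strand), which encodes haptoglobin, measured 238, 270 and 262 CPM in Con and 246, 328 and 336 CPM in Van. Van replicate 1 lay among the Con mice and the other Van mice above them. The log2 fold change was 0.24 ± 0.11 with a 95% interval from -0.02 to 0.50 (adjusted p = 0.341, edgeR). It was 0.37 without Van replicate 1.

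Tfrc, the transferrin receptor, and Slc11a1, which moves metal ions out of the phagosome, served uptake and transport. Tfrc (chr16:32608920-32632794, plus strand) measured 18.3, 16.3 and 18.8 CPM in Con and 20.0, 16.3 and 10.9 CPM in Van. It was the only gene of the 10 with a lower estimate in Van, where replicate 3 was the low mouse and the other Van mice lay at or near the Con range. The log2 fold change was -0.18 ± 0.19 with a 95% interval from -0.61 to 0.26 (adjusted p = 0.719, edgeR), and it was 0.03 without Van replicate 3.

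Slc11a1 (chr1:74375195-74386062, plus strand) measured 407, 465 and 487 CPM in Con and 526, 490 and 454 CPM in Van. Con replicate 1 was low and Van replicate 1 high, and the other mice overlapped. The log2 fold change was 0.11 ± 0.08 with a 95% interval from -0.07 to 0.30 (adjusted p = 0.556, edgeR). It came to 0.04 when Con replicate 1 was left out and to 0.06 when Van replicate 1 was. It rose to 0.17 without Con replicate 3 and also without Van replicate 3.

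**Figure D3:**
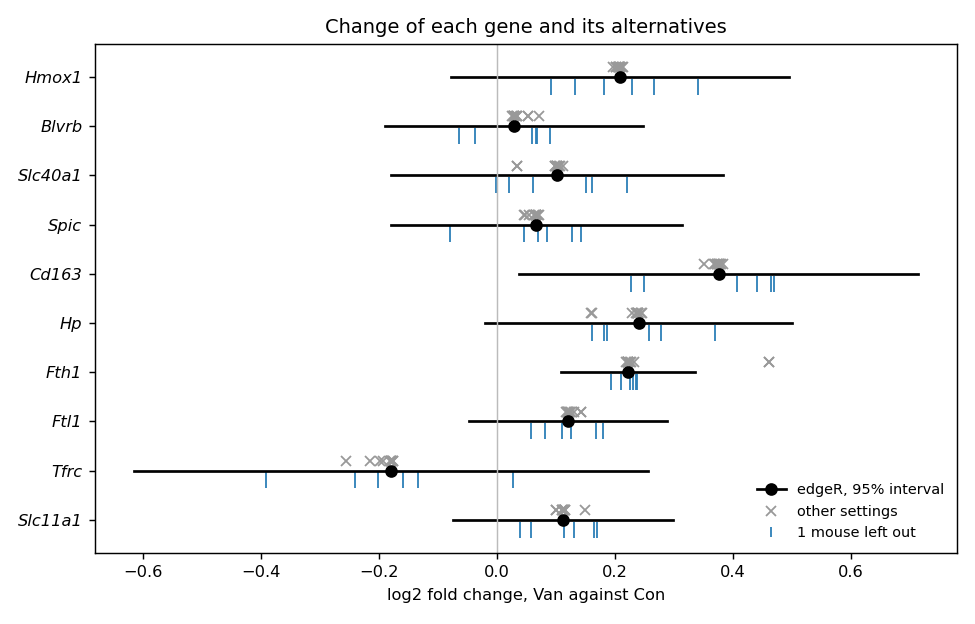
Log2 fold change of Van against Con for the 10 genes, with the edgeR estimate as a black point and its 95% interval as a line, the other settings as grey crosses and the fits with 1 mouse left out as blue ticks. The interval lies above 0 for Fth1 and Cd163, and leaving out 1 mouse carries Blvrb, Slc40a1, Spic and Tfrc across 0.

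The wider pathway was read from 3 lists of 38 further genes, of which 28 were tested. In edgeR's test 0 of the 28 were called, where 2.00% of all genes were, and 18 were higher and 10 lower in Van, and their median was 0.03 on the log2 scale. An unadjusted p under 0.05 was found for 3 of the 28, against 16.5% of all genes, and DESeq2, which gave Ltf no adjusted p, called 2 of the others, against 7.35%. The lists of heme handling, iron transport, and iron storage and sensing had 4 of 7, 7 of 12 and 7 of 9 tested genes higher in Van, with medians of 0.02, 0.04 and 0.08.

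Of the 9 genes taken as the 3 most abundant of each list, 7 had overlapping groups. Pcbp1 and Mcoln1 did not overlap, where 22.5% of all genes tested had no overlap. Among the 7, Lrp1, a receptor that also clears hemopexin with its heme, measured 2726 ± 195 CPM in Con and 2780 ± 122 in Van (log2 fold change 0.03 ± 0.07, adjusted p = 0.888, edgeR). Bach1, the repressor of Hmox1 that heme releases, had a log2 fold change of -0.01 ± 0.06, and Hebp1, a heme-binding protein, 0.21 ± 0.12. Trf, the iron carrier transferrin, measured 634 ± 35.4 CPM in Con and 676 ± 69.6 in Van (0.09 ± 0.08 on the log2 scale). Slc25a28, a mitochondrial iron importer, gave -0.09 ± 0.09. Pcbp2, an iron chaperone, gave 0.01 ± 0.05, and Hfe, which acts in iron sensing, 0.04 ± 0.10.

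Of the 28 genes, the 3 with an unadjusted p under 0.05 were also the 3 without overlap, against 22.5% of all genes. Fbxl5 is named here after its values were seen. Fbxl5, the iron-sensing subunit of the ligase that degrades iron regulatory protein 2, measured 119, 117 and 105 CPM in Con and 138, 133 and 162 CPM in Van. All Van mice lay above all Con mice, with a log2 fold change of 0.34 ± 0.09 and an adjusted p of 0.0903 in edgeR's test and 0.0055 in DESeq2's. Pcbp1, which hands iron to ferritin, measured 208, 188 and 211 CPM in Con and 227, 253 and 243 CPM in Van. It differed by 0.26 ± 0.07 on the log2 scale, with an adjusted p of 0.103 in edgeR's test and 0.0139 in DESeq2's. Mcoln1, a lysosomal cation channel, had means of 34.4 ± 0.96 CPM for Con and 38.6 ± 0.37 for Van, an estimate of 0.17 ± 0.06 on the log2 scale and an adjusted p of 0.210 in edgeR's test. The messages of both iron regulatory proteins themselves, Aco1 and Ireb2, also named after their values were seen, had log2 fold changes of 0.08 ± 0.07 and -0.12 ± 0.07. Hamp, which encodes hepcidin, the hormone that closes ferroportin, had a count of 0 in all 6 libraries.

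The labelled cell type was checked against markers. Monocyte markers were abundant, led by Lyz2 (12137 ± 665 CPM in Con and 11290 ± 1397 in Van), and the sum of the 15 was between 27440 and 28502 CPM in Con and between 27292 and 28558 in Van. Of these 15, 2 were called by edgeR (2.00% of all genes tested), Ccr2 with a log2 fold change of -0.83 ± 0.14 (adjusted p = 0.0283) and Vcan with 1.54 ± 0.26 (adjusted p = 0.0309). The estimate was higher in Van for 7 of the 15 and lower for 8. An unadjusted p under 0.05 was found for 5 (16.5% of all genes), 5 had no overlap (22.5%), and DESeq2 called 4 (7.35%). Genes of the red pulp macrophage marker list were present in every library, and whether they came from these cells alone was not tested. Vcam1 measured 547, 691 and 633 CPM in Con and 782, 958 and 829 CPM in Van, and C1qa, the most abundant of that list per length, 243 ± 35.2 FPKM in Con and 294 ± 40.4 in Van.

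The red pulp macrophage list had higher estimates in Van as well. All 10 of its genes had a higher estimate in Van, at a median of 0.28 on the log2 scale. Of them, 7 had an unadjusted p under 0.05 (16.5% of all genes), 4 had no overlap (22.5%) and 0 were called by edgeR (2.00%), while DESeq2 called 3 (7.35%). With no filter on low counts, or with the replicate number as a block, edgeR called 1. Leaving out Con replicate 1 gave a median of 0.18, and leaving out Van replicate 2 a median of 0.17.

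The level of each gene was also set against that marker sum within its own library. That sum was itself higher in Van, by 0.28 on the log2 scale, so a gene at the same level in both groups has a lower ratio in Van. Of the 10 genes, 9 had a lower ratio in Van than in Con, which the divisor alone can give. Cd163 had a higher one, with 2.46% ± 0.26 of the marker sum in Con and 2.64% ± 0.17 in Van. Fth1 was at 62.8% ± 5.08 in Con and 60.4% ± 4.87 in Van, with overlapping groups. Blvrb, at 2.38% ± 0.08 in Con and 2.01% ± 0.08 in Van, and Spic, at 2.99% ± 0.36 and 2.55% ± 0.14, had lower ratios in Van with no overlap. Such a separation was found for 32.2% of all genes tested, and the median gene moved by -0.28 on the log2 scale against the same sum, compared with -0.24 for Blvrb and -0.22 for Spic.

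**Figure D4:**
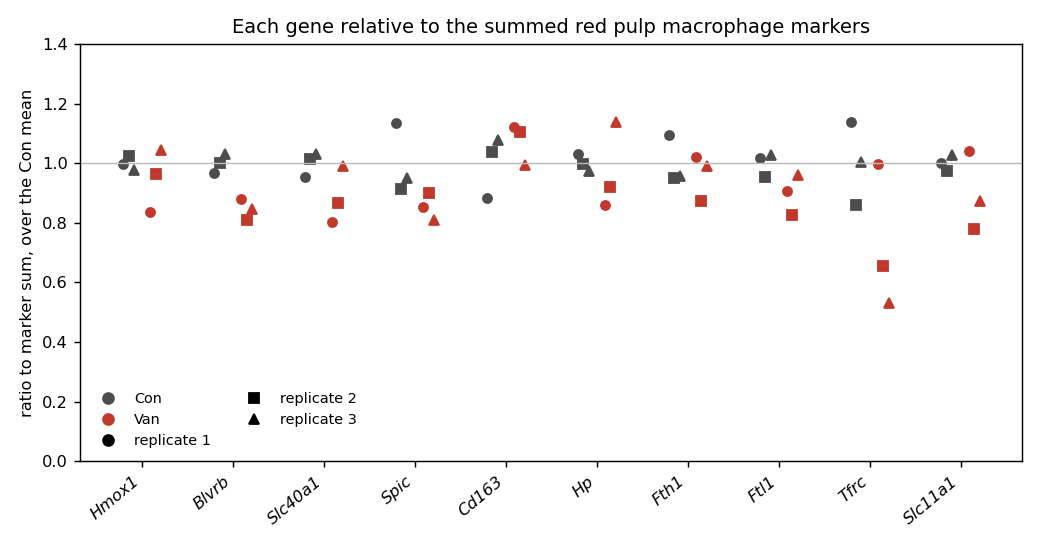
CPM of each iron recycling gene divided by the summed CPM of the 10 red pulp macrophage markers, relative to the Con mean, 1 symbol per mouse, with Con in grey and Van in red and the symbol's shape giving the replicate. The 3 Van mice lie below the 3 Con mice for Blvrb and Spic, and the groups overlap for the other 8 genes.

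Erythroid messages, the source of hemoglobin, also had mostly higher estimates in Van. Of 15 tested erythroid genes 14 had a higher estimate in Van, against 49.6% of all genes tested. EdgeR called 5 of them (Hba-a1, Hba-a2, Hbb-bs, Hbb-bt and Alas2), against 2.00% of all genes. The summed level of the list was between 96.0 and 185 CPM in Con and between 295 and 643 CPM in Van. Hba-a2, the most abundant per length, had a log2 fold change of 1.81 ± 0.33 (adjusted p = 0.0372, edgeR). Leaving out Con replicate 1, 2 or 3 or Van replicate 2 left 0 of the erythroid genes called, Van replicate 1 left 1 and Van replicate 3 left 4. The 3 limma fits on FPKM also called 0 of them, and DESeq2 called 7, against 7.35% of the genes it adjusted. The alpha globin genes are near-identical, as are the adult beta globin genes, so that reads can be split within each pair. The part of erythroid RNA in the iron genes was not tested.

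**Figure D5:**
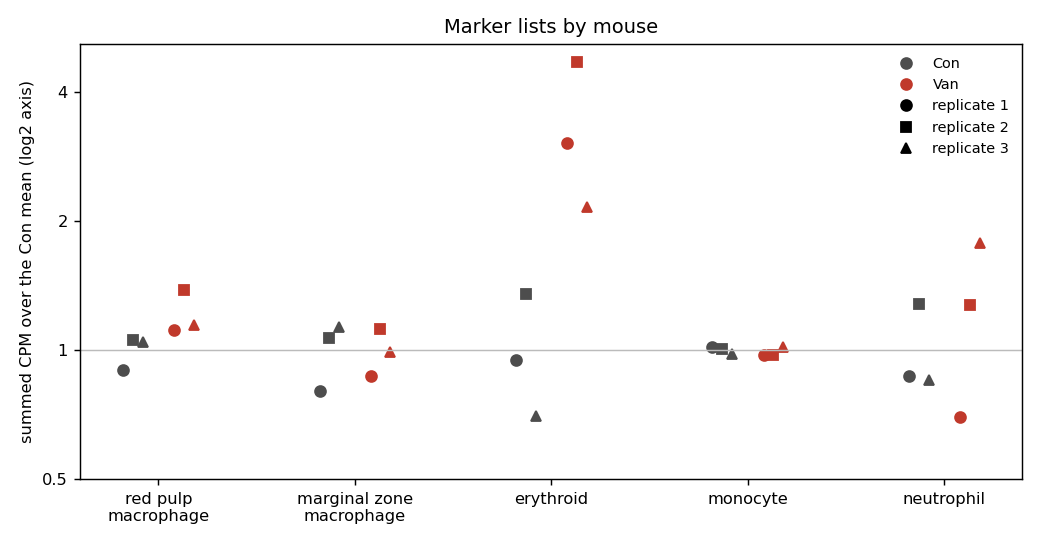
Summed CPM of 5 marker lists in each mouse, relative to the Con mean on a log2 axis, with Con in grey and Van in red and the symbol's shape giving the replicate. The groups do not overlap for the red pulp macrophage and erythroid lists, and they overlap for the marginal zone macrophage, monocyte and neutrophil lists.

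The markers of other cell types set limits on what else the libraries held. The 4 marginal zone macrophage markers, led per length by Marco, summed to between 150 and 211 CPM in Con and between 163 and 209 CPM in Van. Within that sum the estimates differed in sign, with Marco at 0.61 ± 0.22 and no overlap (adjusted p = 0.211, edgeR) and Siglec1, named after its values were seen, at -0.45 ± 0.14 (adjusted p = 0.151 in edgeR's test and 0.0191 in DESeq2's). Neutrophils also carry haptoglobin, and the isolation selected against cells with Ly-6G, whose gene Ly6g stood at 0 in all libraries. Of 13 neutrophil markers 11 were tested and 0 called, 9 of the 11 had a lower estimate in Van, and their median was -0.72 on the log2 scale. Their summed level, from 45.8 to 68.9 CPM in Con and from 37.7 to 95.6 in Van, came mostly from Mmp8, with 42.2 ± 16.1 CPM in Con and 59.7 ± 28.1 in Van. Of the other lists, only Clec9a among the dendritic cell genes (-1.12 ± 0.14, adjusted p = 0.0131) and Pecam1 among the stromal and endothelial genes (1.14 ± 0.19, adjusted p = 0.0308) were called by edgeR, and none was among the B cell, plasma cell, T cell and NK cell genes. The summed level of the 6 stromal and endothelial genes was between 58.8 and 74.3 CPM in Con and between 105 and 184 in Van. It came mostly from Pecam1, with 57.9 ± 6.71 CPM in Con and 128 ± 38.6 in Van, and 3 of the 6 genes had a lower estimate in Van. Each of the other genes of that list had a mean of at most 7.38 CPM in either group. The sum therefore follows Pecam1 and is no measure of stromal or endothelial cells. The sum of the 6 B cell genes, all with a lower estimate in Van, was between 42.7 and 45.7 CPM in Con and between 35.2 and 37.5 in Van. Neither sum overlapped between the groups, and their part in the iron genes was not tested. Of the 6 fits with 1 library left out, Ccr2 was called in 2, Vcan in 1, Clec9a in 4 and Pecam1 in 2, and all 4 were lost without Con replicate 3 and without Van replicate 2, with adjusted p-values of edgeR no higher than 0.129 in any of these fits.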

How the data were processed

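The data are 6 RNA-seq libraries of splenic monocytes, 3 Con and 3 Van, each from a single mouse as the methods give it. The paper's data statement points to a different deposit, and treatment was what tied these libraries to its groups. The authors aligned the reads to GRCm38 with HISAT2 2.2.1, sorted them with SAMtools 1.9 and assembled them with StringTie 2.1.3, and the deposited estimated counts were made through tximport. The authors' FPKM values scale to transcript length and library size. DESeq2 1.38.3 is in the submitters' processing notes. The annotation release and the handling of strand and of reads with several matches are not given in the sources used here. Multiplied by 75, between 52.3% and 55.0% of the deposited counts in a library were whole within 0.05, so the conversion may have assumed reads of 75 bases and counted a fragment as more than 1. A fit with counts multiplied by 0.375 was an alternative.

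The estimated counts were rounded and tested in R 4.3.3 with edgeR 4.0.16 (TMM, expression filter at a minimum count of 10, quasi-likelihood test, group as the only term), and p-values were adjusted over 16138 identifiers by the Benjamini-Hochberg method. P-values measure the spread between these mice only. Alternatives were DESeq2 1.42.0, RLE size factors, library size alone, other filters, the replicate number as a block, limma 3.58.1 on quantile-normalized log2(FPKM + 1) and log2(FPKM + 0.1) values, a single identifier per symbol and each library left out, and, after the data were seen, limma without quantile normalization. The scripts were tested on simulated data.

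The 10 genes, the lists and the tests were chosen with earlier results of these data known. Besides the 10, genes were named by rule: called genes and the 3 most abundant tested genes of each wider list, the 5 profiles nearest to Slc40a1 and to Spic, and the called genes of each marker list. The most abundant gene of a marker list was also named, except for the dendritic cell, B cell, plasma cell, T cell and NK cell lists. Vcam1, Fbxl5, Aco1, Ireb2, Hamp, Siglec1 and Ly6g were chosen after their values were seen. Of the identifiers, 98.2% were found in GENCODE M21, which gave the coordinates. No library was a copy of another.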

Additional observations from a re-analysis of the deposited data

How the results depend on the processing

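The number of genes called over the whole table, 322 with edgeR, was 962 with DESeq2, 110 with the replicate number as a block, 39 with limma on log2(FPKM + 1) values after quantile normalization, 4 with a pseudocount of 0.1 and 24 on log2(FPKM + 1) values without quantile normalization. It was between 21 (without Van replicate 2) and 136 (without Con replicate 1) with 1 library left out, so that it rests on every library. Of the called genes 54.0% were higher in Van, against 71.8%, 75% and 83.3% in the 3 limma fits. The share was 90.9% when Con replicate 3 was left out and 85.7% when Van replicate 2 was. Of the 10 iron recycling genes, 1 (Fth1) was called by DESeq2 (log2 fold change 0.22, adjusted p = 0.0016) and 1 (Fth1) by limma on log2(FPKM + 1) values after quantile normalization (0.46, adjusted p = 0.0460), where the estimate without quantile normalization was 0.23 (adjusted p = 0.170). DESeq2 also called 2 genes of the wider lists, Pcbp1 and Fbxl5. With 1 library left out, the estimate ran from -0.0641 to 0.0905 for Blvrb, from -0.00094 to 0.220 for Slc40a1, from -0.0799 to 0.144 for Spic and from -0.391 to 0.0270 for Tfrc, and the other 6 genes kept their sign under all 17 alternatives. The cause of these changes was not tested. Libraries with the same number in both groups did not deviate together (correlations of 0.08, -0.02 and -0.14), and not every library correlated best with its own number, so the numbers do not pair the mice. The block called 0 of the 10 genes, with an adjusted p of 0.137 for Fth1. With 3 mice per group, the spread between mice limits the precision more than the counts do.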
